A study of Mus musculus with 5 samples.

Results

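Melanocyte lineage and melanosome genes were followed in 5 RNA-seq libraries of B16F10 cells, a mouse melanoma line that makes pigment. The set holds 38 genes of the 54100 in the table. Its members were named by symbol from what is known of pigment cells, with earlier results of these data at hand. Its genes were found by their mouse Ensembl identifiers. It has 5 lineage transcription factors, 5 receptors, 3 melanin enzymes, 5 proteins of the melanosome matrix and membrane, 6 transporters and channels, 10 genes of melanosome biogenesis, 3 genes of melanosome transport and the marker S100b. The series concerns HIF-1α, a transcription factor subunit that is degraded when oxygen is plentiful, in stem-like melanoma cells grown in suspension.

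Each of the 5 groups had 1 library. Conventional three-dimensional (3D) culture, dynamic suspension culture and shControl carried the genotype label WT, and the remaining libraries bore the labels HIF-1α knockdown and, in the last, HIF-1α overexpression. All 5 were B16F10 without treatment, and all shared 1 growth protocol, 7 to 10 days in medium without serum, shaken at 60 to 80 rpm, so the labels separate the cultures only by title. The construct, the vector and whether a line was 1 clone are not stated in the labels. For each group 3 repeats were pooled before sequencing, so no difference has a replicate check, no test across conditions was possible and every comparison is between 2 libraries.

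Hif1a, the targeted gene, measured 542 CPM (counts scaled to library size, here with TMM factors) in conventional 3D culture and 390.5 CPM in dynamic suspension. It measured 61.3 CPM in shControl, against 95.1 and 384 CPM in the libraries labelled knockdown and overexpression. Hif1a was thus above shControl in the library labelled knockdown, against the label, and the header of its column is B16F10, the name of the line without a construct. That library therefore gives no direction for a loss of Hif1a. The values summed to between 59493240 and 61267892 in the columns of shControl, conventional 3D and dynamic suspension, which hold estimated counts, and to 14803426 (labelled knockdown) and 15393189 (labelled overexpression) in the remaining columns, which hold plain counts. Where these kinds of column are set against each other, the kind of column and the group cannot be told apart. All 7 melanocyte markers (Mitf, Sox10, Tyr, Tyrp1, Dct, Pmel and Mlana) were above 1 CPM in every library, and 0 of 6 keratinocyte markers reached 1 CPM in any. In whole-culture RNA, fewer cells of a type and less RNA per cell cannot be told apart.

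Melanocytes arise from the neural crest under the control of Sox10, Pax3 and Mitf, and Mitf, a basic helix-loop-helix leucine zipper factor, switches on many pigment genes. Melanin is made by tyrosinase, encoded by Tyr, with the related enzymes of Tyrp1 and Dct, inside melanosomes, which are lysosome-related organelles built on amyloid fibrils of Pmel. Sorting complexes named after Hermansky-Pudlak syndrome deliver the enzymes, transporters set the pH and ions of the organelle, and Rab27a, Mlph and Myo5a carry it along actin.

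Upstream sequence of the 3 melanin enzyme genes and of Trpm1 is shown first. The enzyme genes share the extended E-box TCATGTGCT (the M-box), a form of the motif that Mitf is known to bind. The sequences are from RefSeq on GRCm38.p6, each read 5′ to 3′ on the strand of its gene, with the match in capitals. For Tyr (chr7:87493513-87493762, minus strand), Dct (chr14:118052247-118052496, minus strand) and Trpm1 (chr7:64153585-64153834, plus strand) these are the 250 bases before the RefSeq start. For Tyrp1 (chr4:80834156-80834185, plus strand) 30 bases around the match are given, because GENCODE places the start of the gene upstream of it.
Tyr: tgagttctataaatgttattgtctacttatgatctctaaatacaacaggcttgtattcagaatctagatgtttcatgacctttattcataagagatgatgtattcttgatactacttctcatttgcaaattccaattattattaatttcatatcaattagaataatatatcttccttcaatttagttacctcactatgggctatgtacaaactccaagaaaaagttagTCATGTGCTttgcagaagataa
Dct: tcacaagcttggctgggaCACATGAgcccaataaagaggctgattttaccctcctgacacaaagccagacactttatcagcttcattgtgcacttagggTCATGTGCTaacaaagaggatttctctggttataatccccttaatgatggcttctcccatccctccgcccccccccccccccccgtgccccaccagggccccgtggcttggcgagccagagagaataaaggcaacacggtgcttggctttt
Tyrp1: ggggagggagTCATGTGCTgcctagtagtt
Trpm1: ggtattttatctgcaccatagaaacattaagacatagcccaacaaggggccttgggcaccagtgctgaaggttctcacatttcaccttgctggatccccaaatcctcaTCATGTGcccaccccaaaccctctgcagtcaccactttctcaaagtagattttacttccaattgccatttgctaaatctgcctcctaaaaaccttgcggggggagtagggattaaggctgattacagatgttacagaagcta

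The M-box began 22 bases before the RefSeq start in Tyr, 47 in Tyrp1 and 151 in Dct, and Dct held a further match to TCATGTG on the other strand (capitals CACATGA) 232 bases before its start. Trpm1 held TCATGTG without the last letters of the M-box, 142 bases before the more upstream of its listed starts. Over both strands, TCATGTGCT was present in 3 of 38 promoter entries of the members (7.89%) and in 0.335% of all 32841 promoters of the same length. The 3 entries were those of Tyr, Tyrp1 and Dct, which share this form of the motif, so the contrast is not independent of them. The shorter TCATGTG, which the M-box contains, was in 8 of 38 (21.1%, in Dct, Hps1, Mc1r, Slc24a5, Trpm1, Tspan10, Tyr and Tyrp1) and in 3.25% of all promoters. Its core CATGTG, contained in both, was in 9 of 38 (23.7%) and in 12.3% of all. The other E-box, CACGTG, was in 7 of 38 entries (18.4%, in Atp7a, Hps3, Hps5, Met, Mlph, Rab27a and Trpm1) against 6.02% of all. ACGTG, the core of many HIF-bound elements and a part of CACGTG, was in 13 of 38 (34.2%) against 16.6%. These matches describe letters in a window and not binding, and 31 of the 38 members had an entry. Sequences were not used here for Slc45a2, Gpr143, Rab38, Pmel, Pax3, Mlana and Sox10.

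**Figure D1:**
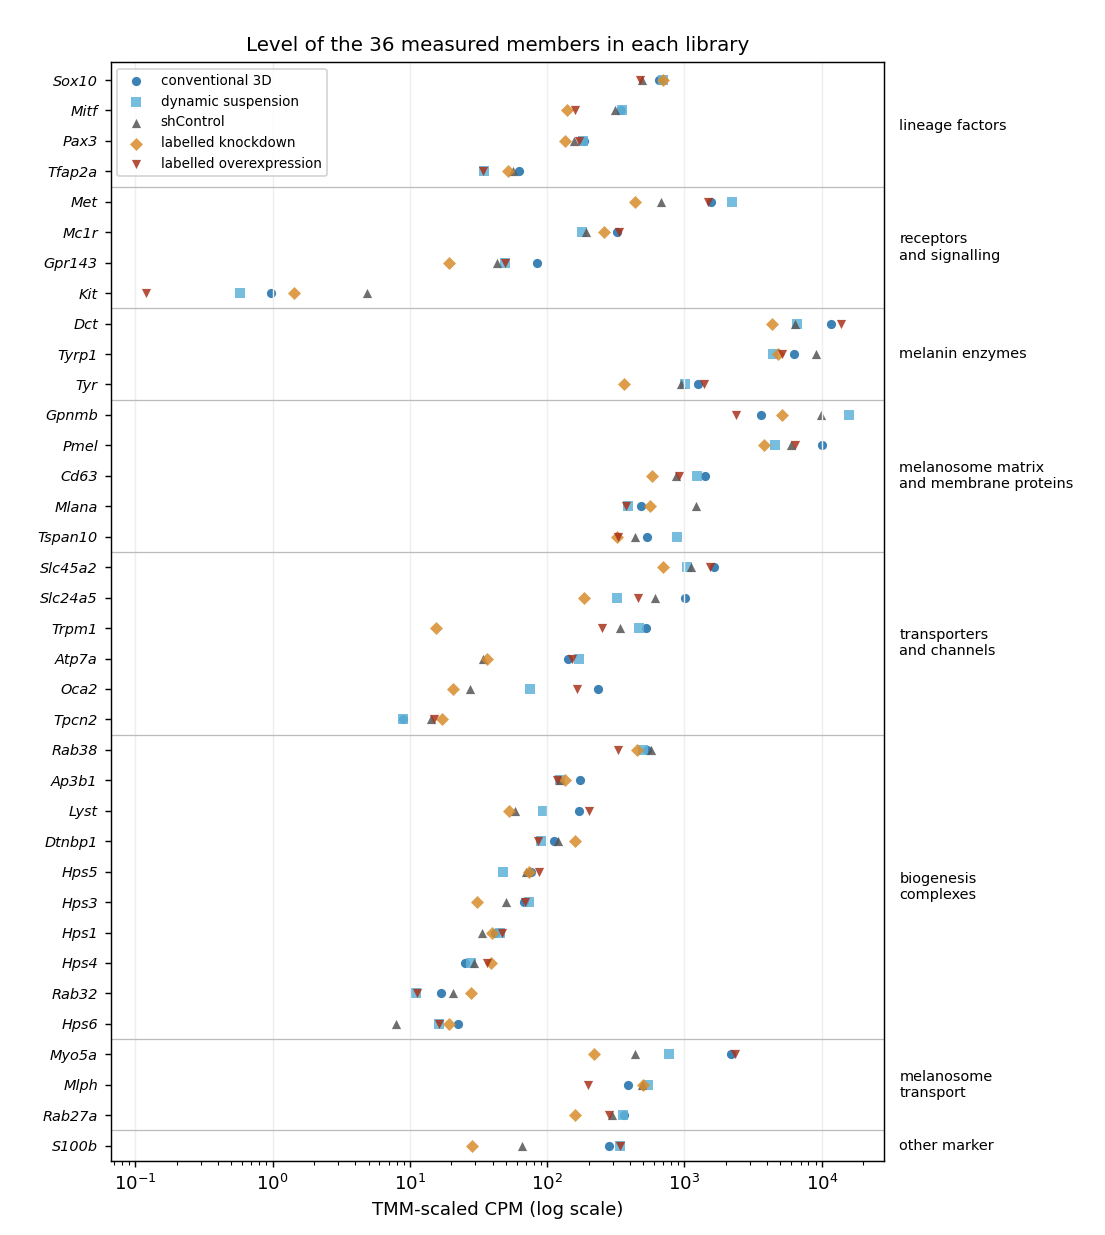
Level of the 36 members that averaged 1 CPM or more, shown for each of the 5 libraries in TMM-scaled CPM on a log axis, grouped by role and ordered by mean level within a role; each point is 1 library. Kit, Trpm1, S100b, Oca2 and Myo5a spread most between libraries, whereas Pax3, Hps1, Ap3b1 and Sox10 lie close together.

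Most of the set was strongly transcribed in this line. Of the 38 members, 36 averaged 1 CPM or more over the libraries and 26 averaged 100 CPM or more, while Irf4 and Ednrb lay below 1 CPM. Together the members took 4.05% of all values in conventional 3D culture, 4.32% in dynamic suspension and 4.26% in shControl. They took 2.53% in the library labelled knockdown and 4.37% in that labelled overexpression. The share was thus lowest in the library labelled knockdown and spanned 4.05% to 4.37% in the rest. Per length of exon, on a TPM-like scale that allows genes to be compared, Pmel and Tyrp1 were the highest members in conventional 3D culture, shControl and the library labelled knockdown. In dynamic suspension the level of Gpnmb, at 6544, passed those of Pmel at 5348 and Tyrp1 at 4215, and in the library labelled overexpression Dct, at 8121, stood between Pmel at 9715 and Tyrp1 at 6298.

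Below, the values of a gene are TMM-scaled CPM in the order conventional 3D, dynamic suspension, shControl, labelled knockdown and labelled overexpression unless stated. A ratio is the log2 ratio of such values with a prior count of 2, and its interval is an exact conditional binomial (Clopper-Pearson) 95% interval that covers counting error only. Higher or lower beyond 2-fold means a log2 ratio of at least 1 in size, a mean over both libraries of at least 1 CPM and an interval that excludes a ratio of 1. By this measure 23 members were beyond 2-fold in at least 1 of 6 comparisons and 15 in none. The matching share of all genes over the 6 comparisons together was not computed, so these counts say nothing particular about the set. In single comparisons the share of all genes was between 14.1% and 36.3%. Exons of 9 members (Tfap2a, Mc1r, Pmel, Slc24a5, Trpm1, Hps1, Hps3, Hps4 and Rab27a) overlap those of another gene. Whether the counting used strand is not given in the sources used here, so their values are less certain, most of all for Slc24a5, which shares 921 of its 2330 exon bases with Myef2 on the other strand.

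Among the lineage factors Mitf separated the libraries, and Sox10 and Pax3 varied little. Mitf (chr6:97807052-98021349) measured 344, 350.5, 314, 139 and 158 CPM. Its 3 values in the columns of estimated counts were close together, and both columns of plain counts were lower. Against shControl its log2 ratio was -1.17 (-1.24 to -1.11) in the library labelled knockdown, 2.25-fold lower, and -0.99 (-1.05 to -0.93) in the library labelled overexpression, just short of 2-fold. Sox10, the neural crest factor upstream of Mitf, measured 658, 698, 487, 695 and 471 CPM, and no comparison of it reached 2-fold. Pax3, a paired-box factor that acts with Sox10 on Mitf, lay between 135 and 185 CPM. Tfap2a, which binds beside Mitf at pigment genes, was 62.4, 34.4, 56.2, 51.5 and 34 CPM and stayed within 2-fold. Irf4, a partner of Mitf at the Tyr gene, had 19, 8, 4, 0 and 0 counts, too few for a comparison. For a count of 0 the 95% Poisson interval reaches 0.242 CPM in the library labelled knockdown and 0.22 in that labelled overexpression. A floor of 3 counts is 0.197 and 0.179 CPM in these libraries.

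The receptors did not move together. Mc1r, the melanocortin receptor that raises Mitf and pigment through cyclic AMP, measured 319.9, 179, 190.4, 260.2 and 336 CPM, within 2-fold throughout. Met, the receptor of hepatocyte growth factor, measured 1559.9, 2225, 678, 435 and 1480.0 CPM. It was thus high in dynamic suspension, conventional 3D culture and the library labelled overexpression, and low in shControl and in the library labelled knockdown. Against shControl the log2 ratio of Met was 1.20 (1.19 to 1.22) in conventional 3D culture, 1.71 (1.70 to 1.73) in dynamic suspension and 1.13 (1.10 to 1.15) in the library labelled overexpression. With library totals in place of TMM the first of these was 0.95, under 2-fold.

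Kit, the receptor of stem cell factor, was low in every library, with 52, 35, 298, 22 and 2 counts (0.977, 0.579, 4.84, 1.44 and 0.119 CPM). shControl stood above all others. The scaled ratio of shControl to the library labelled overexpression was 40.6 with a counting interval of 11.1 to 337. Kit was also lower than shControl in conventional 3D culture (log2 ratio -2.25, -2.76 to -1.88), in dynamic suspension (-2.96, -3.61 to -2.55) and in the library labelled knockdown (-1.71, -2.44 to -1.12). Ednrb, the endothelin receptor of melanoblasts, had 6, 11, 28, 0 and 0 counts. Gpr143, a G-protein-coupled receptor of the melanosome membrane, measured 85, 49.6, 43.4, 19.4 and 49.5 CPM, lowest in the library labelled knockdown (log2 ratio to shControl -1.16, -1.34 to -0.99).

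The 3 melanin enzymes, whose upstream M-boxes are printed above, had different patterns. Tyr, which catalyses the first and limiting steps of melanin synthesis (chr7:87424771-87493512), measured 1259.6, 1009, 942, 364 and 1378 CPM. The library labelled knockdown stood apart at the low end, and the other 4 lay between 942 and 1378. Its log2 ratio to shControl was -1.37 (-1.41 to -1.33) in the library labelled knockdown and 0.55 (0.53 to 0.57), within 2-fold, in the library labelled overexpression.

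Dct, dopachrome tautomerase (chr14:118012790-118052244), measured 11693, 6619, 6396, 4345 and 13722 CPM. Conventional 3D culture and the library labelled overexpression were high, and the other 3 were low. Against shControl the log2 ratio of Dct was 1.10 (1.09 to 1.11) in the library labelled overexpression and 0.87 in conventional 3D culture. Tyrp1, which acts late in eumelanin synthesis (chr4:80834123-80851719), measured 6304, 4401, 9012, 4789.7 and 5105 CPM, highest in shControl. The lower value of dynamic suspension was a log2 ratio of -1.03 (-1.04 to -1.03) to shControl, which became -0.99 when the TMM factors were taken without the library labelled knockdown.

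The balance of the enzymes within a library therefore differed. On the TPM-like scale Dct was 0.890 times Tyrp1 in conventional 3D culture, 0.721 times in dynamic suspension and 0.340 times in shControl. It was 0.435 times Tyrp1 in the library labelled knockdown and 1.29 times in that labelled overexpression. Only in the last of these 5 did Dct exceed Tyrp1. The level of Dct relative to Mitf was 35.7, 19.9, 21.4, 32.7 and 91.1, and that of Tyr relative to Mitf was 3.19, 2.51, 2.62, 2.27 and 7.59. Both ratios were highest in the library labelled overexpression, where Mitf was low and these enzymes high. Such ratios within a library do not depend on the scaling between libraries.

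**Figure D2:**
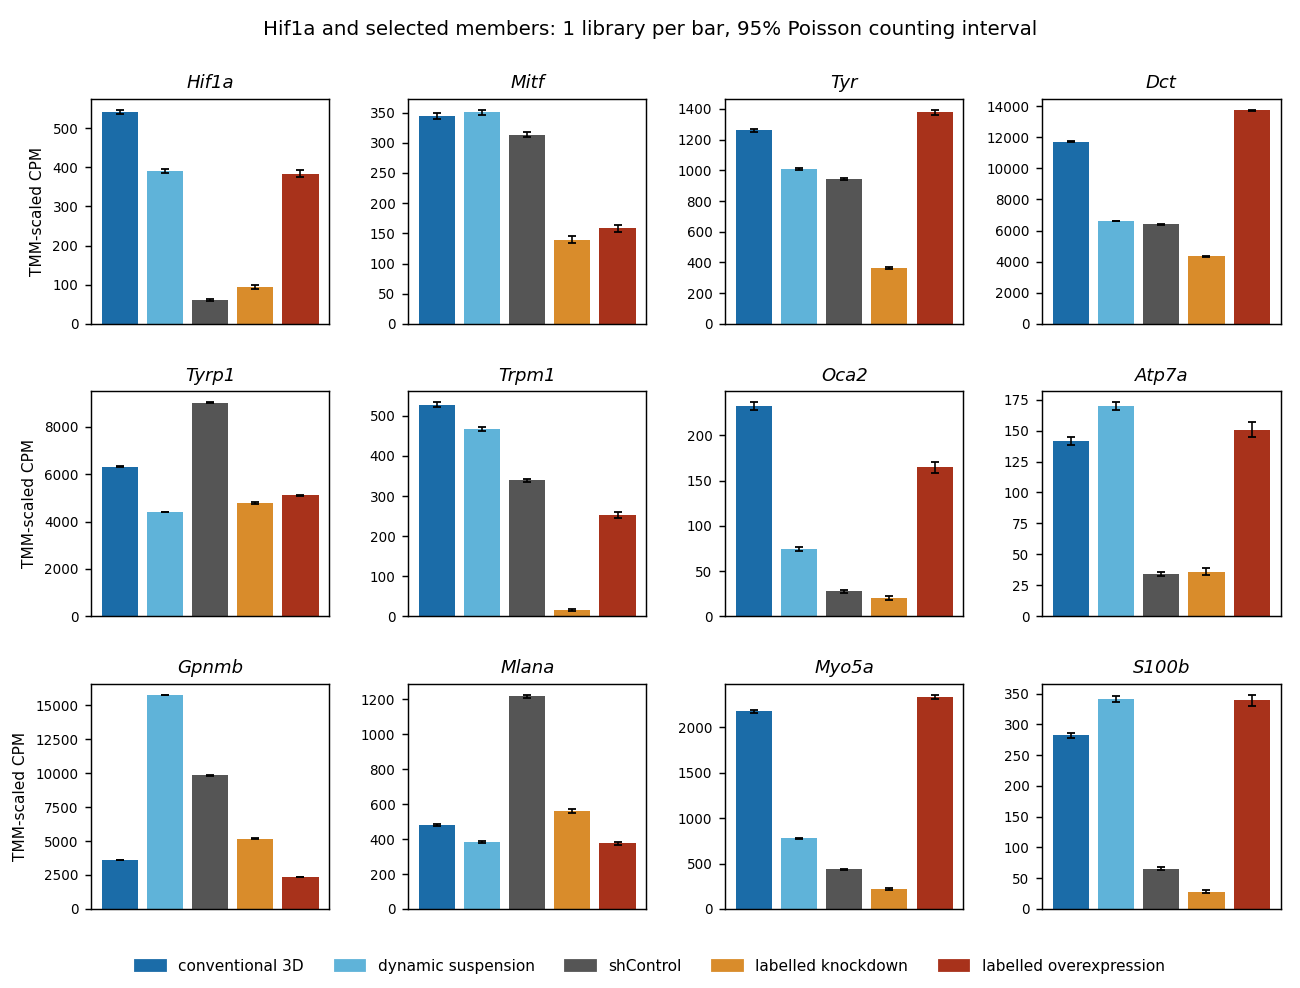
TMM-scaled CPM of Hif1a and 11 members in the 5 libraries, 1 bar per library, from 0; bars show the value and whiskers its 95% Poisson counting interval. Oca2, Atp7a, Myo5a and S100b were low in shControl and the library labelled knockdown, Mlana was highest in shControl, Trpm1 was lowest in the library labelled knockdown and Gpnmb was highest in dynamic suspension.

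Among matrix and membrane proteins of the melanosome, Gpnmb and Mlana varied most. Gpnmb, a transmembrane glycoprotein related to Pmel (chr6:49036546-49070929), measured 3596, 15738, 9828, 5171 and 2362 CPM. Dynamic suspension and shControl were high, and conventional 3D culture and the library labelled overexpression were low. Between the culture methods its log2 ratio was 2.13 (2.12 to 2.14), with 4.38 times the level in dynamic suspension. Against shControl it was lower in conventional 3D culture (-1.45, -1.46 to -1.44) and in the library labelled overexpression (-2.06, -2.07 to -2.04).

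Pmel, the fibril protein (chr10:128704195-128720238), measured 10081, 4526, 5989.5, 3808 and 6382 CPM, highest in conventional 3D culture. Pmel and Gpnmb thus lay at opposite ends between the culture methods. The log2 ratio of Pmel in dynamic suspension to conventional 3D culture was -1.16 (-1.16 to -1.15), and -0.97 with library totals in place of TMM. The TPM-like ratio of Gpnmb to Pmel was 0.126, 1.22, 0.577, 0.478 and 0.130, and it was above 1 in dynamic suspension alone of the 5 libraries.

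Mlana, a small membrane protein that interacts with Pmel (chr19:29697824-29708634), measured 482, 385, 1219, 559 and 375 CPM. shControl stood above the other 4, which lay between 375 and 559. The log2 ratios to shControl were -1.34 (-1.36 to -1.32) for conventional 3D culture, -1.66 (-1.69 to -1.64) for dynamic suspension, -1.12 (-1.16 to -1.09) for the library labelled knockdown and -1.70 (-1.74 to -1.66) for the library labelled overexpression. These 4 ratios share the shControl library. Among the tetraspanins, Cd63, which sorts Pmel in endosomes, measured 1400.2, 1242, 861, 583 and 919 CPM and stayed within 2-fold in each comparison. Tspan10 measured 535, 875, 434, 324 and 327 CPM, with a log2 ratio of dynamic suspension to shControl of 1.01 (0.99 to 1.03), and 0.95 with library totals in place of TMM.

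Transporters and channels held some of the widest ranges in the set. Trpm1, a cation channel also called melastatin (chr7:64153835-64269775), measured 528, 467, 339, 15.6 and 252 CPM, or 28096, 28227, 20863, 238 and 4227 counts. The library labelled knockdown stood far below the other 4. Its log2 ratio to shControl was -4.43 (-4.63 to -4.25), 21.6-fold lower, and that of the library labelled overexpression to it was 4.01 (3.82 to 4.20). Mitf in the library labelled knockdown was lower than in shControl by far less. The TPM-like ratio of Trpm1 to Mitf was 0.645, 0.560, 0.454, 0.0471 and 0.668, so within the library labelled knockdown Trpm1 was low even relative to Mitf.

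Oca2, which conducts anions and raises melanosome pH (chr7:56239760-56536518), measured 233, 74.4, 27.5, 20.5 and 165 CPM. Conventional 3D culture and the library labelled overexpression were high, dynamic suspension was between, and shControl and the library labelled knockdown were low. Against shControl its log2 ratio was 3.08 (3.0 to 3.15) in conventional 3D culture, 1.43 (1.35 to 1.52) in dynamic suspension and 2.58 (2.49 to 2.67) in the library labelled overexpression. Between the culture methods it was -1.64 (-1.69 to -1.60), lower in dynamic suspension.

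Atp7a, which loads copper onto tyrosinase (chrX:106027276-106124926), measured 142, 169.6, 34.4, 36.2 and 151 CPM. Conventional 3D, dynamic suspension and the library labelled overexpression were high, and shControl and the library labelled knockdown were low. Against shControl the log2 ratio of Atp7a was 2.04 (1.97 to 2.11) in conventional 3D culture, 2.30 (2.24 to 2.37) in dynamic suspension and 2.13 (2.05 to 2.21) in the library labelled overexpression. In that labelled knockdown it was 0.08.

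Slc45a2, a transporter needed for tyrosinase activity, measured 1644, 1048, 1121, 703 and 1539 CPM and passed 2-fold only between the libraries labelled overexpression and knockdown (log2 ratio 1.13, 1.10 to 1.16). Slc24a5, a potassium-dependent sodium-calcium exchanger, measured 1011, 322, 611, 187 and 459 CPM, with the overlap given above. It was lower in dynamic suspension against conventional 3D (-1.65, -1.67 to -1.63) and below shControl in the library labelled knockdown (-1.71, -1.77 to -1.65). Tpcn2, an endolysosomal cation channel, was scarce at 8.84 to 17.1 CPM and within 2-fold throughout.

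Of the 10 biogenesis genes, Lyst, Hps6, Hps3 and Rab32 were beyond 2-fold in at least 1 comparison. Hps1 and Hps4 (BLOC-3), Hps5 (BLOC-2), Dtnbp1 (BLOC-1), Ap3b1 (AP-3) and Rab38, a small GTPase that directs enzymes to melanosomes, were within 2-fold in all 6 comparisons. Of these, Rab38 measured between 328 and 568 CPM. Lyst, the large trafficking protein lost in Chediak-Higashi syndrome (chr13:13590397-13778803), was the most variable of the group, at 171, 93.0, 57.9, 52.5 and 203 CPM. Its log2 ratio to shControl was 1.56 (1.5 to 1.62) in conventional 3D culture and 1.81 (1.74 to 1.88) in the library labelled overexpression.

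Hps6, a BLOC-2 subunit encoded by an intronless gene (chr19:46003508-46006173), measured 22.5, 16.4, 7.92, 19.2 and 16.4 CPM. shControl was the lowest, and the other 4 were higher than it beyond 2-fold, with log2 ratios of 1.5 (1.35 to 1.66), 1.04 (0.89 to 1.20), 1.27 (1.06 to 1.49) and 1.05 (0.83 to 1.27). The ratio of dynamic suspension was 0.98 with library totals in place of TMM, and that of the library labelled overexpression was 0.96 with TMM factors from protein-coding genes of own sequence. Hps3, also of BLOC-2, measured 67.8, 73.4, 49.8, 30.6 and 68.9 CPM. Rab32, the close relative of Rab38, measured 16.7, 11.1, 20.6, 27.8 and 11.3 CPM. Between the libraries labelled overexpression and knockdown Hps3 was higher (1.17, 1.02 to 1.33) and Rab32 lower (-1.30, -1.56 to -1.05).

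The 3 genes of the transport complex did not follow each other. Myo5a, the motor (chr9:75071015-75223688), measured 2176, 777, 438, 219.5 and 2337 CPM. Conventional 3D culture and the library labelled overexpression were high, and the library labelled knockdown was lowest. Mlph, the adaptor (chr1:90915085-90951142), measured 387, 540.3, 489, 501 and 197 CPM, with the library labelled overexpression lowest. Rab27a, the GTPase on the melanosome (chr9:73044854-73097629), measured 365, 359, 295, 159 and 282 CPM and was within 2-fold in each of the 6 comparisons. Motor and adaptor thus had their extremes in the same library and in opposite directions, with log2 ratios to shControl of 2.42 (2.39 to 2.44) for Myo5a and -1.31 (-1.36 to -1.26) for Mlph in the library labelled overexpression.

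The TPM-like ratio of Myo5a to Mlph was 2.03, 0.521, 0.324, 0.159 and 4.29. The motor transcript was the more abundant in conventional 3D culture and the library labelled overexpression, and the adaptor transcript in the rest. Against conventional 3D culture, Myo5a in dynamic suspension had a log2 ratio of -1.48 (-1.5 to -1.47). In the library labelled knockdown it was 1.996-fold lower than shControl, just short of the threshold (interval of the log2 ratio -1.05 to -0.95).

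S100b, a calcium-binding protein used as a melanoma marker (chr10:76253853-76261159), measured 282, 341, 65.5, 28.2 and 339 CPM. As with Atp7a, conventional 3D, dynamic suspension and the library labelled overexpression were high. Its log2 ratio to shControl was 2.11 (2.06 to 2.16) in conventional 3D culture, 2.38 (2.33 to 2.43) in dynamic suspension, -1.22 (-1.37 to -1.07) in the library labelled knockdown and 2.37 (2.32 to 2.43) in the library labelled overexpression.

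**Figure D3:**
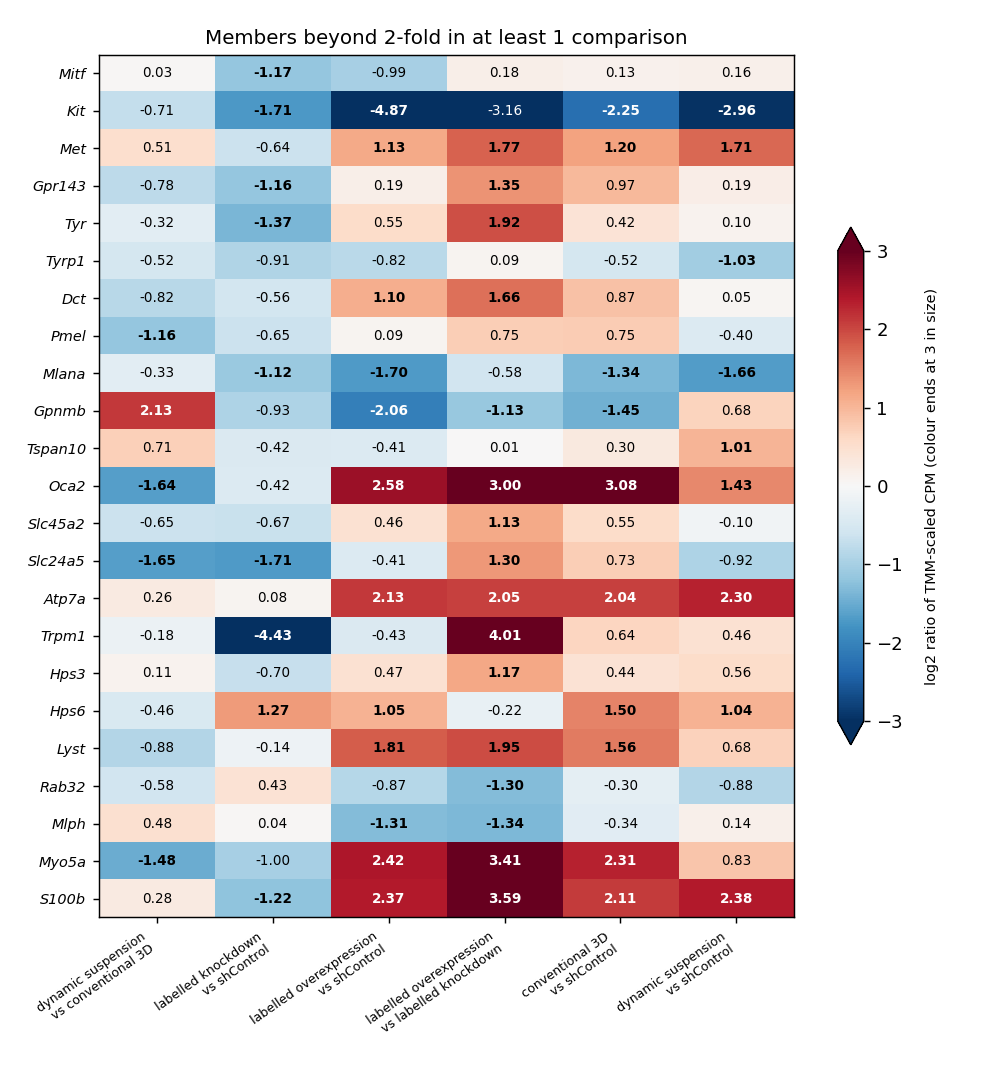
Log2 ratio of TMM-scaled CPM of the 23 members beyond 2-fold in at least 1 comparison (rows, by role) in the 6 comparisons (columns); red is higher and blue lower in the library named first, and bold numbers are beyond 2-fold. The ratio of Trpm1 was -4.43 and that of Oca2 -0.42 in the library labelled knockdown to shControl, and 4.01 and 3.0 in the library labelled overexpression to that labelled knockdown.

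Set against all genes, most comparisons moved the set about as often as the rest of the transcriptome. Between dynamic suspension and conventional 3D culture, both columns of estimated counts, 5 of 35 tested members (14.3%) were beyond 2-fold, close to the 14.1% of all genes tested. Gpnmb was higher, as were 6.44% of all genes, and Pmel, Oca2, Slc24a5 and Myo5a were lower, as were 7.64%. The median log2 ratio of the members was -0.32, beside -0.02 over all 12848 genes that averaged 1 CPM or more. With library totals in place of TMM the member median was -0.13, while the median of all genes moved to 0.17. Fibroblast markers differed here as well: 6 of 8 were lower in dynamic suspension and 0 higher, with a summed level of 128.7 CPM in conventional 3D culture against 37.6. Vwf, the only tested endothelial marker of 4, was lower as well (-3.30), with Pecam1, Cdh5 and Kdr at 0 in conventional 3D culture. The only tested leukocyte marker of 6, Cd68, had a log2 ratio of 0.10. No member of the set is on these lists, and the part of other cells in the result was not tested.

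Between the library labelled knockdown and shControl, 9 of 36 members (25%) were beyond 2-fold, near the 23.7% of all genes. Of these, 8 were lower (Mitf, Kit, Gpr143, Tyr, Mlana, Slc24a5, Trpm1 and S100b) and Hps6 was higher, where 15.7% of all genes were lower and 8.06% higher. The member median was -0.49 beside 0.00 over all genes. With TMM factors from protein-coding genes of own sequence, 11 members were lower and 1 higher, beside 2238 and 778 of all genes. Between the library labelled overexpression and shControl, 12 of 36 (33.3%) were beyond 2-fold, below the 36.3% of all genes, with 8 higher (Met, Dct, Oca2, Atp7a, Hps6, Lyst, Myo5a and S100b) and 4 lower (Kit, Mlana, Gpnmb and Mlph). Over all genes 16.1% were higher and 20.1% lower. The member median was 0.09 beside -0.03. In these comparisons the kind of column cannot be told apart from the group. Markers of other cells differed too. Of 6 tested fibroblast markers, 2 were higher and 3 lower in the library labelled knockdown (summed level of all 8, 35.6 against 38.4 CPM in shControl), and 1 was higher and 4 lower in that labelled overexpression (15.8 CPM). Cd68, the only leukocyte marker tested, was lower in the former (-2.11) and higher in the latter (1.23), with Ptprc at 0 in all 3 libraries. The part of such cells in the results was not tested.

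The libraries labelled overexpression and knockdown, both plain counts, differed most in this set. Of 35 tested members 16 (45.7%) were beyond 2-fold, against 32.7% of all genes. Of these 13 were higher in the library labelled overexpression, where 17.7% of all genes were higher: Met, Gpr143, Tyr, Dct, Oca2, Slc45a2, Slc24a5, Atp7a, Trpm1, Hps3, Lyst, Myo5a and S100b. Gpnmb, Rab32 and Mlph were lower, where 14.9% of all genes were. By role, 5 of 6 transporters and channels, 2 of 3 tested receptors, 2 of 3 melanin enzymes, 2 of 10 biogenesis genes, 1 of 3 transport genes, 0 of 4 tested lineage factors and 0 of 5 matrix and membrane proteins were higher, as was S100b. The lower genes were 1 each of the matrix proteins, the biogenesis genes and the transport genes. The log2 ratio was 3.59 (3.45 to 3.74) for S100b, 3.41 (3.36 to 3.46) for Myo5a, 3.0 (2.83 to 3.17) for Oca2, 1.92 (1.88 to 1.96) for Tyr and 1.66 (1.65 to 1.67) for Dct, while Mitf stood at 0.18. The member median was 0.30 beside -0.02 over all genes, and 0.18 without the members whose exons overlap another gene. Hif1a itself had a log2 ratio of 2.01 (1.93 to 2.10). Of 4 tested fibroblast markers, 3 were lower and 0 higher in the library labelled overexpression (summed level of all 8, 15.8 against 35.6 CPM). Cd68 was higher (3.34, with Ptprc at 0 in both), as was the endothelial marker Vwf (1.16, with Cdh5 and Kdr at 0 in both), and the part of such cells was not tested.

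Exon length moved with this last comparison and with ratios to shControl. Of the 8 measured members with at least 7 kb of exon (Kit, Met, Tyr, Atp7a, Trpm1, Hps3, Lyst and Myo5a), 7 were higher in the library labelled overexpression than in that labelled knockdown and 0 lower, with a median log2 ratio of 1.94. The 28 shorter members had 6 higher and 3 lower and a median of 0.14. Over all protein-coding genes of at least 7 kb the median was 0.20 and 21.4% were higher, and over those under 2 kb it was -0.15 and 14.9%. Kit, the long member outside the calls, had a log2 ratio of -3.16 from 2 and 22 counts, below the 1 CPM mean. Over protein-coding genes under 2 kb and of at least 7 kb, the medians to shControl were -0.08 and 0.15 in conventional 3D culture. They were -0.13 and 0.14 in dynamic suspension, -0.16 and 0.23 in the library labelled overexpression, and -0.04 and 0.07 in that labelled knockdown. In the last, the long members had a median of -0.85 and the shorter ones -0.38. The part of length in these ratios was not tested.

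Both culture methods were also set against shControl, all of them columns of estimated counts. In conventional 3D culture 10 of 36 members (27.8%) were beyond 2-fold, against 28.9% of all genes, with 7 higher (Met, Oca2, Atp7a, Hps6, Lyst, Myo5a and S100b) and 3 lower (Kit, Mlana and Gpnmb). Over all genes 14% were higher and 14.9% lower. In dynamic suspension 9 of 36 (25%) were, against 28.6%, with 6 higher (Met, Tspan10, Oca2, Atp7a, Hps6 and S100b) and 3 lower (Kit, Tyrp1 and Mlana), where 13.8% and 14.8% of all genes were. The member medians were 0.43 and 0.15, beside 0.00 and -0.02 over all genes. With library totals the first was 0.17, while the median of all genes moved to -0.26. In conventional 3D culture 6 of 8 fibroblast markers were also higher than in shControl, at a summed 128.7 against 38.4 CPM. In dynamic suspension 0 of 6 tested ones were beyond 2-fold (37.6 CPM). Cd68 was higher in both (1.78 and 1.88), and Vwf was higher in conventional 3D culture (1.77) and lower in dynamic suspension (-1.52). Cd68 was the only tested leukocyte marker of 6, with Ptprc at 0 in dynamic suspension and shControl. Vwf was the only tested endothelial marker of 4. Pecam1, Cdh5 and Kdr were at 0 in conventional 3D culture, as was Cdh5 in dynamic suspension and shControl. The part of such cells in the results was not tested.

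These comparisons share shControl with those of the construct libraries, so their ratios are given side by side only. For Oca2 the ratios to shControl in the order conventional 3D, dynamic suspension, labelled knockdown and labelled overexpression were 3.08, 1.43, -0.42 and 2.58. For Myo5a they were 2.31, 0.83, -1.0 and 2.42, for Lyst 1.56, 0.68, -0.14 and 1.81, and for Dct 0.87, 0.05, -0.56 and 1.10. In these genes conventional 3D culture and the library labelled overexpression had the highest ratios and the library labelled knockdown the lowest. They are examples, and other members differed. Met and Atp7a had their highest ratio to shControl in dynamic suspension. Gpnmb was below shControl in conventional 3D culture and in the library labelled overexpression. Tyrp1, at -0.52, -1.03, -0.91 and -0.82, and Mlana were below shControl in all 4.

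**Figure D4:**
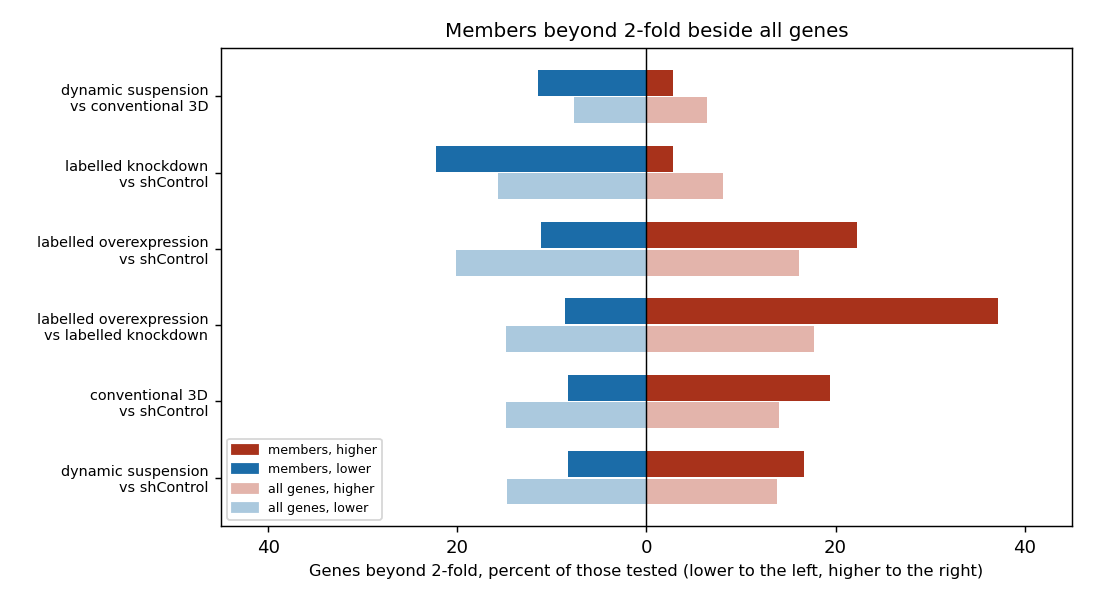
Percent of tested members and of all tested genes beyond 2-fold in each of 6 comparisons, with those lower drawn to the left of 0 and those higher to the right; dark bars are members and pale bars all genes. The member bar for higher genes passes that of all genes most in the library labelled overexpression against that labelled knockdown, where 13 of 35 members were higher beside 17.7% of all genes.

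Genes around the set were read from lists of 84 symbols, of which 82 matched. Of 10 tested lineage regulators near Mitf, which include its relatives Tfeb and Tfe3, Sox9 was the most changed between the culture methods, at 20.4, 54.7, 14.7, 4.73 and 5.95 CPM. It was higher in dynamic suspension against conventional 3D (1.42, 1.32 to 1.52) and lower than shControl in the libraries labelled knockdown (-1.62, -2.0 to -1.29) and overexpression (-1.29, -1.61 to -1.0). Tbx2, a repressor of cell cycle inhibitors, measured 294, 569, 166, 197 and 390.5 CPM. Tfeb (20.3 to 34 CPM) and Tfe3 (61.9 to 106 CPM) were within 2-fold in all comparisons.

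Of 7 tested genes known as Mitf targets outside pigment, Bcl2, an inhibitor of apoptosis, was highest in shControl, at 12, 11.6, 30.1, 13.9 and 9.05 CPM. Ppargc1a, a coactivator of mitochondrial genes, measured 63.7, 151, 144, 65.8 and 70.8 CPM. Both were lower than shControl beyond 2-fold in the libraries labelled knockdown (-1.11 and -1.13) and overexpression (-1.73 and -1.02). Both were also lower beyond 2-fold in conventional 3D culture, and Bcl2 in dynamic suspension. Mitf was also lower than shControl in the libraries labelled knockdown (-1.17) and overexpression (-0.99, just short of 2-fold). In conventional 3D culture its log2 ratio to shControl was 0.13, so there Bcl2 and Ppargc1a did not follow it. Gpr137b, a lysosomal membrane protein, measured 924, 719, 692, 290.4 and 1730.0 CPM, with a log2 ratio between the libraries labelled overexpression and knockdown of 2.57 (2.53 to 2.62). Of the 50-base words of its transcripts, 28.6% also occur in other genes, Gpr137b-ps among them, so its values are less certain.

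Among 24 tested partners of the biogenesis complexes (BLOC, AP-3 and HOPS), 0 were higher and 1 (Ap3s1, -1.05) lower between dynamic suspension and conventional 3D culture, where 14.1% of all genes were beyond 2-fold. In the library labelled knockdown to shControl 2 were higher (Bloc1s3 and Bloc1s4) and 2 lower (Bloc1s1 and Rabggta), where 23.7% of all genes were beyond 2-fold. In that labelled overexpression to shControl 2 were higher (Vps39 and Vps11) and 3 lower (Bloc1s1, Bloc1s2 and Ap3d1), beside 36.3% of all genes. Between the construct libraries 2 of 23 were higher (Snapin and Rabggta) and 1 lower (Ap3d1, -1.42), beside 32.7%. To shControl, conventional 3D culture had 1 higher (Vps11) and 1 lower (Bloc1s2), beside 28.9%, and dynamic suspension 0 higher and 1 lower (Bloc1s2), beside 28.6%. Bloc1s1 was 14.5, 9.80 and 18 CPM in the columns of estimated counts and had 2 counts in each of the other columns. It shares 47.7% of its sequence words with other genes, Rdh5 among them, so this value is uncertain. Among 10 tested genes of motility and transfer, Fscn1, an actin-bundling protein, was 5.86, 5.99, 4.35, 51.3 and 9.47 CPM, and Rab17, a GTPase of melanosome release, 6.71, 34.4, 10.3, 19.9 and 12.1 CPM.

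Among 11 other pigment genes, Cited1, a transcriptional coactivator expressed in melanocytes, had the widest range, at 207, 940.1, 38.5, 16.9 and 280.0 CPM. Its log2 ratio was 2.18 (2.15 to 2.21) between the culture methods, 4.61 (4.55 to 4.67) for dynamic suspension to shControl and 4.05 (3.87 to 4.24) between the libraries labelled overexpression and knockdown. Slc7a11, the cystine transporter of pheomelanin synthesis, was highest in the library labelled knockdown, at 32.5, 21.5, 17.4, 47.1 and 27.2 CPM. Of the ligands only Pomc, the precursor of melanocortins, reached a mean of 1 CPM, at 0.583, 2.10, 1.88, 1.31 and 0.714 CPM.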

How the data were processed

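Deposited values per gene were taken unchanged, with 0 columns left over. By the pattern of their low values, the authors' deposited columns for shControl and both culture methods hold estimated counts and those labelled knockdown and overexpression hold counts. The tools HISAT2, StringTie and cutadapt and the builds GRCm38.p6 and mm10 are named in the submitters' processing notes. The counting program was not given in the sources used here. Per the labels, libraries were poly(A)-selected and strand-specific.

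All 54100 identifiers matched GENCODE M21. Libraries were scaled by TMM factors (edgeR 4.0.16) over all 5 libraries, from which CPM, log2 ratios and intervals were computed (scipy 1.17.1). TPM-like values are counts per kilobase of union exon length scaled to a fixed sum. Intervals, and the floor of 3 counts, cover counting error only, and for estimated counts may be too narrow. The calling step was tested on simulated data.

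Members and lists were chosen with earlier results of these data known. All members are accounted for, those beyond 2-fold in at least 1 comparison with their values. From each wider list, examples were taken from the up to 3 genes with the largest ratios beyond 2-fold in a comparison, and Tfeb and Tfe3 were added after their values were seen. Alternatives covered the scaling, the filter, the prior count and exon overlap. The result of 1 marker list is not reported here.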

Additional observations from a re-analysis of the deposited data

How the results depend on the processing

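No paired analysis was possible because each group has 1 library, and for the same reason no library could be left out of a group. No alternative turned the direction of a member beyond 2-fold. The counts that follow cover values kept from the main setting and leave out values gained under an alternative. Of 61 such values over the 6 comparisons, 61 were kept with RLE size factors, with no filter on low values and with a prior count of 0.5, 60 with TMM factors from protein-coding genes of own sequence and 57 with library totals, and the values that fell short are given beside their genes. Without the members whose exons overlap another gene, 3 members in place of 5 were beyond 2-fold between dynamic suspension and conventional 3D culture, since fewer genes enter, and the member median was -0.42 for the library labelled knockdown to shControl (-0.49 with all members) and 0.18 for the library labelled overexpression to that labelled knockdown (0.30). With library totals the member median was -0.13 for dynamic suspension to conventional 3D culture (-0.32 with TMM), and 0.17, 0.17 and 0.088 to shControl for the library labelled overexpression, conventional 3D culture and dynamic suspension (0.09, 0.43 and 0.15 with TMM). With library totals, the share of higher genes among all genes beyond 2-fold moved from 45.7% to 61.4% between the culture methods and from 48.6% to 31.8% for conventional 3D culture to shControl. With RLE factors the member median to shControl was -0.45 for the library labelled knockdown and 0.45 for conventional 3D culture. With TMM factors from genes of own sequence the member median was -0.59 for the library labelled knockdown to shControl and 0.0050 for the library labelled overexpression to shControl, and the medians of all genes moved to -0.10 and -0.11. With TMM factors taken without the library labelled knockdown, chosen after seeing the data, the member medians to shControl were 0.46 for conventional 3D culture and 0.19 for dynamic suspension, and 35 of 36 values beyond 2-fold were kept. Counts were low for Irf4 and Ednrb, at 0 in the libraries labelled knockdown and overexpression, and for Kit, with 2 counts in the latter. The size of their ratios is therefore uncertain. The 95% Poisson interval of a count of 0 reaches 0.242 and 0.22 CPM in the libraries labelled knockdown and overexpression.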
